A study of Mus musculus with 16 samples.

Results

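De novo fatty acid synthesis, the making of fatty acids from acetyl-CoA, was followed through 9 genes in mouse liver: Acly, Acss2, Acaca, Acacb, Fasn, Me1, Elovl6, Scd1 and Thrsp. They were chosen by name for their roles, with earlier results of these data known. All 9 were found among the 24539 genes in each count table. The diets compared in male C57BL/6 mice were HB (a high-fat diet plus betaine, a methyl donor) and HF (the high-fat diet without betaine). Mice began their diet when 8 weeks old, ate it for 8 weeks and were sampled at an age of 16 weeks, so both groups carried the high-fat diet and neither stands for lean liver. Each diet had 2 libraries of total mRNA, 2 of mRNA pelleted with ribosomes and their nascent chains (RNC, here ribosome-bound mRNA) and 2 of RNA fragments captured by antibodies to N6-methyladenosine (m6A). Per the labels, the material sequenced for mRNA and ribosome-bound mRNA was pooled from 2 independent experiments. The p-values therefore measure the spread between pools, which may be technical, and not that between mice. The dose of betaine was not given in the sources used here.

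In the liver cytosol, ATP citrate lyase (Acly) splits citrate exported from mitochondria into acetyl-CoA, and Acss2 makes acetyl-CoA from acetate. The acetyl-CoA carboxylases (Acaca and Acacb) turn it into malonyl-CoA, from which fatty acid synthase (Fasn) builds palmitate with NADPH that comes in part from malic enzyme (Me1). Elovl6 lengthens palmitate to stearate, Scd1 places the first double bond in stearate and palmitate, and Thrsp (Spot 14) is a small protein that promotes lipogenesis. In liver these genes are known targets of the transcription factors SREBP-1c (from Srebf1) and ChREBP (from Mlxipl), which answer to insulin and to sugar.

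The total mRNA libraries held 22492813 and 18011999 reads in HB and 11437462 and 11570775 reads in HF, and the ribosome-bound libraries 5778439 to 8659310 reads. The 2 HB ribosome-bound libraries stood apart, because they were nearly copies of each other. Over 9197 genes their chi-square, divided by its degrees of freedom, was 1.40, while the other pairs reached 98.0 (HF ribosome-bound), 98.5 (HB mRNA) and 34.7 (HF mRNA). Although 1.40 exceeded pure sampling noise (chi-square p = 2.39e-130), the pair was summed and counted as 1 sample. In the HF ribosome-bound pair, 2798 genes had 0 reads in 1 library and over 20 in the other, whereas 0 genes did so in the HB pair. Hepatocyte markers such as Alb and Apoa1 summed to 109400 and 105000 CPM (counts per 1000000 library reads) in the HB mRNA libraries and to 96400 and 100700 CPM in the HF ones. The 8 adipocyte markers, whose cells also make fatty acids, summed to 58.2 and 73.4 CPM in HB and to 90.1 and 169 CPM in HF. Markers at 0 were Adipoq and Lep in HB replicate 1 and Plin1 in HB replicate 2. In HF they were Lep and Retn in replicate 1, and Plin1, Lep and Retn in replicate 2.

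Part of the promoters is shown first, as the sequence around the starts of these genes. RefSeq promoter windows (GRCm38.p6, 250 bases before to 50 after a gene's annotated start) were given for 8 of the 9 genes. The 4 windows below are those with a CCAAT box, the site bound by the factor NF-Y, within 100 bases upstream of the start. Only the 250 bases before the start are printed, on the gene's own strand, and the capitals mark CCAAT or its reverse complement ATTGG (in Fasn a pair of boxes overlaps in CCAATTGG).
Fasn: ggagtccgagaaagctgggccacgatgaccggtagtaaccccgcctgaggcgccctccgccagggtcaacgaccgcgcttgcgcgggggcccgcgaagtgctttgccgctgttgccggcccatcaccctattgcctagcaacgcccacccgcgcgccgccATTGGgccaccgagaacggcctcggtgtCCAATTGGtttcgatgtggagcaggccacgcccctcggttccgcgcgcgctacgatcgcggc
Thrsp: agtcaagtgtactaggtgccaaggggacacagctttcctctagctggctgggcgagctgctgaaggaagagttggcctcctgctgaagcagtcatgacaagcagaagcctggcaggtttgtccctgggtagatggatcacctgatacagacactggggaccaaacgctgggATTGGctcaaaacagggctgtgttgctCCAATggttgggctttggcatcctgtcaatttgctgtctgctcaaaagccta
Acss2: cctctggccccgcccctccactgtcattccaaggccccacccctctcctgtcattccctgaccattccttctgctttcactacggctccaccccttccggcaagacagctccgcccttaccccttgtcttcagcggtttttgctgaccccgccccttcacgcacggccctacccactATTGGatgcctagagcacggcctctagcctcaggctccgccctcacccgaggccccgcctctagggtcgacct
Acacb: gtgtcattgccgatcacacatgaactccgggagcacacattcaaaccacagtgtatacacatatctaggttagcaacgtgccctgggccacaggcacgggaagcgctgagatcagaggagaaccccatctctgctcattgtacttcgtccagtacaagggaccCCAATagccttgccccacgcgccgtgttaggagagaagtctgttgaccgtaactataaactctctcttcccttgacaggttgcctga
These stretches are chr11:120824548-120824797 (minus strand) for Fasn, chr7:97417551-97417800 (minus strand) for Thrsp, chr2:155517793-155518042 (plus strand) for Acss2 and chr5:114165268-114165517 (plus strand) for Acacb. Counted from the start site, the boxes began at -90, -62 and -59 in Fasn, at -79 and -52 in Thrsp, at -73 in Acss2 and at -87 in Acacb. Including the 50 bases after the start, CCAAT on either strand stood in a window of 6 of the 8 genes, which adds Acly (at 38 bases after the start) and Me1 (at -208 in its other window), and in 37.4% of all 32851 promoter windows. The Sp1 box GGGCGG, on either strand, stood in windows of Acss2, Me1 and Acly, in 35.7% of all windows and in 60.2% of the 12719 windows of genes tested for mRNA (CCAAT: 37.7% of those). On either strand, the E-box CACGTG was in 7.15% of all windows and an exact DR4-like repeat for LXR in 0.0152%. The SREBP-like letters TCACNCCAC were in 1.24% and their core CACCCCAC in 2.87%. These exact letters stood in the window of 0 of the 8 genes. Because the strings are rare and variant sites were not searched, this cannot show that such sites are lacking. Both forms of the SREBP-like site can overlap. For Fasn, Acacb and Acaca, and for the other window of Me1, the window belongs to a start inside the gene's annotated span. A match is a description of the sequence, and binding was not measured.

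The first comparison asked how total mRNA of the pathway differed with betaine. Total mRNA was called higher in HB for 7 of the 9 genes: Me1, Fasn, Acss2, Acly, Thrsp, Scd1 and Acaca. The groups of Acly overlapped, and DESeq2 did not call it (adjusted p = 0.195). Without HB replicate 1 the log2 change of Acly was 0.17, and the median of the 9 genes was 1.01. Acacb and Elovl6 had higher means in HB without passing the test. On means of CPM adjusted for library composition (TMM scaling), HB over HF ran from 2.41-fold in Acaca to 8.11-fold in Me1. Over all 12817 genes tested with edgeR, 21.4% were called at an adjusted p of 0.05, 11.3% as higher and 10.1% as lower. The median log2 change was 2.17 over the 9 genes and 0.01 over all genes tested. The 9 genes together took 2.08% and 0.644% of all mRNA reads in HB and 0.533% and 0.267% in HF. In bulk tissue, fewer cells of a type and less RNA per cell cannot be told apart.

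Acetyl-CoA supply was the first step examined. Acly (chromosome 11, 100476352 to 100528000, GRCm38.p6) had 702 and 83.2 CPM in HB against 44.1 and 104 CPM in HF. Only HB replicate 1 was high, and HB replicate 2 lay between the 2 HF libraries, so the groups overlapped. The log2 change was 2.41 (SE 0.74, adjusted p = 0.0397, edgeR), and without HB replicate 1 it was 0.17 (adjusted p = 0.841). Acss2 (chromosome 2, 155518043 to 155562743) had 343 and 89.7 CPM in HB against 33.1 and 41.6 CPM in HF. Both HB libraries exceeded both HF libraries, and the log2 change of 2.54 (SE 0.51, adjusted p = 0.00930) was still called without HB replicate 1 (1.26, adjusted p = 0.0466). RefSeq lists a second gene, Acss2os, within the span of Acss2, and whether the reads were counted by strand is not given in the sources used here.

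Malonyl-CoA is made by 2 carboxylases, one serving synthesis in the cytosol and one, Acacb, best known for restraining fatty acid entry into mitochondria. Acaca (chromosome 11, 84129635 to 84401651) had 178 and 87.9 CPM in HB against 64.2 and 46.1 CPM in HF. The groups did not overlap, but the change was the smallest of the 9, with a log2 change of 1.27 (SE 0.36, adjusted p = 0.0298). Acaca was no longer called when HB replicate 1 (change 0.67, adjusted p = 0.160), HF replicate 1 (1.51, adjusted p = 0.0552) or HF replicate 2 (1.02, adjusted p = 0.176) was left out. Acacb (chromosome 5, 114146321 to 114250761) had 337 and 90.6 CPM in HB against 100.2 and 26.0 CPM in HF. Replicate 1 was the higher library in each diet and the groups overlapped. Its log2 change of 1.76 (SE 0.63) missed the threshold (adjusted p = 0.0661), and the value hung on single libraries. It was 0.52 (adjusted p = 0.638) without HB replicate 1, 2.42 (adjusted p = 0.0538) without HB replicate 2, 3.03 (adjusted p = 8.46e-05) without HF replicate 1 and 1.07 (adjusted p = 0.163) without HF replicate 2.

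Fasn and Me1, which make palmitate and part of its NADPH, changed most. Fasn (chromosome 11, 120805958 to 120825166) had 2264 and 369 CPM in HB against 139 and 199 CPM in HF. Both HB libraries lay above both HF libraries, by a wide margin in replicate 1 and a narrow one in replicate 2. The log2 change was 2.96 (SE 0.64, adjusted p = 0.0118), and 1.13 without HB replicate 1 (adjusted p = 0.0661). Me1 (chromosome 9, 86581363 to 86695914) had 473 and 168 CPM in HB against 44.9 and 34.1 CPM in HF. Me1 had the clearest separation of the 9 genes, since its lower HB library was 4.24-fold the HF mean. Its log2 change was 3.02 (SE 0.46, adjusted p = 0.00477), and 2.08 without HB replicate 1 (adjusted p = 0.0407).

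The finishing enzymes and Thrsp came last. Elovl6 (chromosome 3, 129532386 to 129638495) had 369 and 60.3 CPM in HB against 75.5 and 44.1 CPM in HF. HB replicate 2 lay within the HF values, and the log2 change of 1.84 (SE 0.62) missed the threshold (adjusted p = 0.0554). Without HB replicate 1 the difference was 0.01 (adjusted p = 0.984), and Elovl6 was called with any 1 of the other libraries left out (log2 changes of 2.63 without HB replicate 2, 2.28 without HF replicate 1 and 1.49 without HF replicate 2). Scd1 (chromosome 19, 44394450 to 44407709) had 14548 and 5337 CPM in HB against 3736 and 1577 CPM in HF. Both HB libraries were above both HF ones, with a log2 change of 1.90 (SE 0.50, adjusted p = 0.0225) that was 1.01 without HB replicate 1 (adjusted p = 0.225). Thrsp (chromosome 7, 97412933 to 97417550) had 3046 and 1080 CPM in HB against 569 and 348 CPM in HF. Its groups did not overlap, with a log2 change of 2.17 (SE 0.46, adjusted p = 0.0111), and 1.24 without HB replicate 1 (adjusted p = 0.0769).

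**Figure D1:**
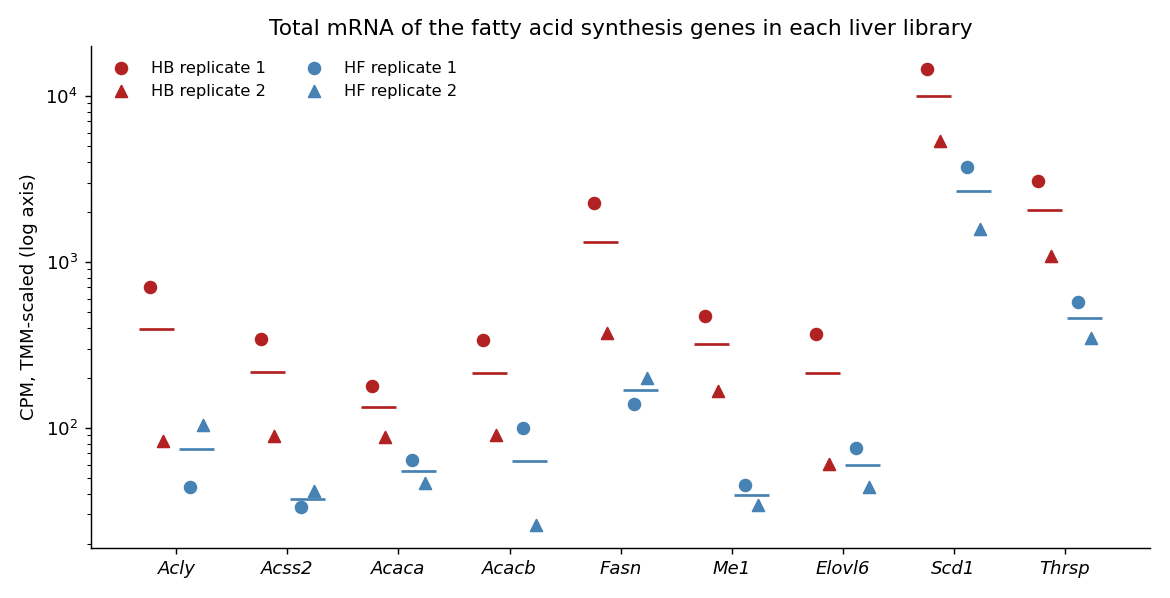
Total mRNA of the 9 genes in CPM after TMM scaling (log axis), with HB in red and HF in blue, circles for replicate 1, triangles for replicate 2 and bars for the mean of each diet (n = 2). HB replicate 1 is the highest library for all 9 genes, and HB replicate 2 lies within the HF values for Acly, Acacb and Elovl6.

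In 6 of the 9 genes both HB libraries exceeded both HF libraries, a pattern that 32.8% of all genes tested showed. Leaving out 1 mRNA library lowered the residual degrees of freedom from 2 to 1. Without HB replicate 1, 5 of the 7 calls were lost, among them Acaca, which was also lost when either HF library was left out. Only Acss2 and Me1 were still called without HB replicate 1, and the median log2 change of the 9 genes was 1.01. Without HB replicate 2 that median was 2.73 and 8 genes were called. Over all genes tested, 787 were called without HB replicate 1 and 3024 without HB replicate 2, against 2740 with both. When the ribosome-bound libraries, which vary far more (common dispersion 0.464 over all 7 libraries against 0.0644 over the mRNA libraries), shared the edgeR fit, 0 genes were called, with 1647 genes and 4 of the 9 at an unadjusted p under 0.05. On the 4 mRNA libraries DESeq2 called 6 of the 9 and 3031 of all genes tested (23.6%). There limma on log2(RPKM + 0.1) called 4 of the 9, and its counts over all genes are given with the processing alternatives.

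The spread of the HB pair was large for this pathway. HB replicate 1 exceeded HB replicate 2 by more than 2-fold in 9 of 9 genes, a step that 5.03% of all genes tested showed. It ran from 2.02-fold in Acaca to 8.44-fold in Acly, with 6.13-fold in Fasn and 6.12-fold in Elovl6. The median log2 difference between the replicates was 1.89 over the 9 genes and -0.05 over all genes, where the median absolute difference was 0.42. In the HF pair, replicate 1 exceeded replicate 2 by more than 2-fold in 2 of the 9 genes (Acacb and Scd1), against 3.18% of all genes, and Acly went the other way with a log2 difference of -1.24. The HB pair thus differed in 1 direction at every step of the pathway, and the HF pair did not. Set against the HF mean, HB replicate 2 alone ranged from 1.01-fold in Elovl6 and 1.12-fold in Acly to 2.40-fold in Acss2 and 4.24-fold in Me1, whereas HB replicate 1 ranged from 3.22-fold in Acaca to 13.4-fold in Fasn. Red cell markers moved the other way between the HB libraries, with 510 CPM in replicate 1 and 1417 CPM in replicate 2, and their part in the result was not tested.

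**Figure D2:**
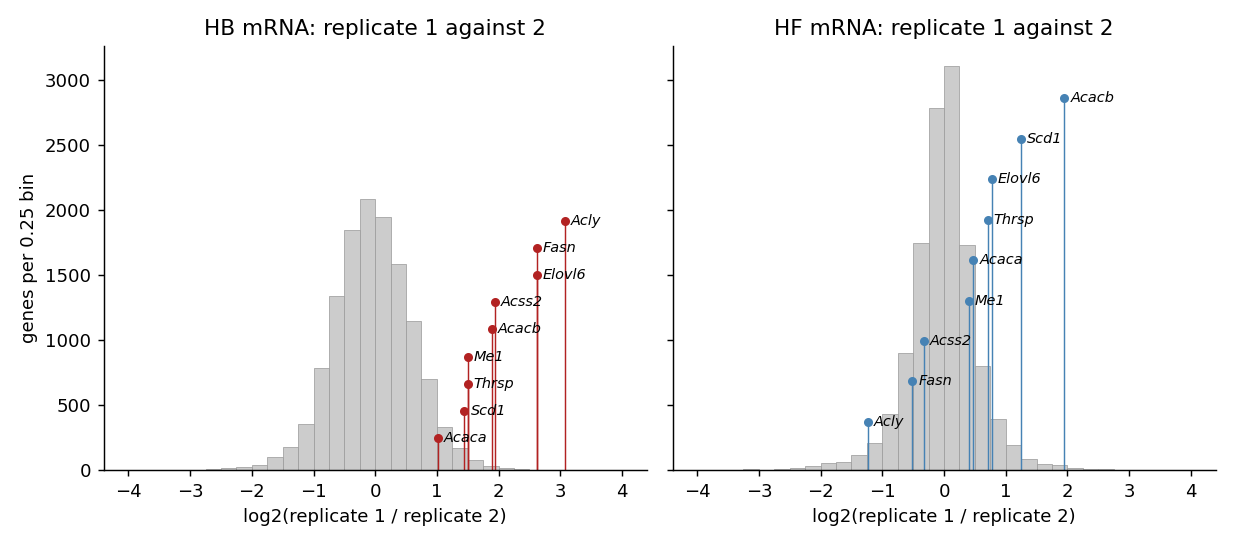
Histograms of the log2 difference between replicates 1 and 2 over the 12817 genes tested, HB on the left and HF on the right, with the 9 genes as labelled stems whose height has no meaning. In HB all 9 genes lie above a difference of 1, and in HF they run from -1.24 (Acly) to 1.95 (Acacb).

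Levels can be compared between genes only per length, for which the deposited RPKM (reads divided by transcript length in kilobases and by library size) was used. In total mRNA, Scd1 averaged 1882 ± 1303 RPKM in HB and 595 ± 345 RPKM in HF (SD, n = 2), and Thrsp averaged 1715 ± 1218 RPKM in HB and 451 ± 156 RPKM in HF (SD, n = 2). The next genes were far lower: Fasn averaged 122 ± 127 RPKM in HB and 18.4 ± 4.49 RPKM in HF (SD, n = 2). At the low end, Acaca averaged 13.4 ± 6.98 RPKM in HB and 6.62 ± 1.57 RPKM in HF (SD, n = 2). In HF the order was Scd1, Thrsp, Fasn, Acly, Acss2, Me1, Elovl6, Acacb and Acaca. Scd1 and Thrsp stood above the rest in both diets, while the neighbours from Fasn (18.4) to Elovl6 (10.9 ± 4.11) and from Elovl6 to Acaca lay within about the spread of their libraries. Reads of Scd1 may be shared with its near copies such as Scd2, and how they were assigned is not given in the sources used here.

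The wider lipogenic pathway was read from a list of 33 partner genes. Over all genes tested for total mRNA, 11.3% were called higher and 10.1% lower. Of the partners, 15 were called higher, 1 was called lower and 17 were not called, with a median log2 change of 0.87. Without HB replicate 1, 9 were called higher and 0 lower. The called partners with the largest changes were Pnpla3, a lipase of lipid droplets, Fads2 and Fads1, the desaturases of polyunsaturated fatty acids, Mid1ip1, a partner of Thrsp that activates acetyl-CoA carboxylase, Acsl5, an acyl-CoA synthetase, and Elovl5, an elongase of polyunsaturated fatty acids. Fads2 had 891 and 352 CPM in HB against 53.4 and 50.6 CPM in HF (log2 change 3.58, SE 0.44, adjusted p = 0.00403). Fads1 had 1054 and 777 CPM in HB against 152 and 151 CPM in HF (log2 change 2.60, SE 0.31, adjusted p = 0.00403). In both desaturases every HB library was well above HF, and the HB replicates of Fads1 differed by only 1.36-fold. Mid1ip1 had 102 and 36.2 CPM in HB against 10.7 and 14.0 CPM in HF (log2 change 2.48, SE 0.44). Acsl5 had 529 and 259 CPM in HB against 86.6 and 62.6 CPM in HF (log2 change 2.40, SE 0.38). Elovl5 had 1203 and 781 CPM in HB against 238 and 170 CPM in HF (log2 change 2.28, SE 0.34). In these 3 genes too the groups did not overlap, with HB replicate 1 the higher one. Pnpla3 had 87.1 and 2.16 CPM in HB against 2.84 and 2.67 CPM in HF (log2 change 4.02, SE 1.11, adjusted p = 0.0270). HB replicate 2 lay below both HF libraries, and without HB replicate 1 the log2 change of Pnpla3 was -0.35 (adjusted p = 0.653). The other 5 of these partners kept their calls without any 1 library, with adjusted p-values of 0.0407 to 0.0441 without HB replicate 1. Of the 33 partners, 9 had HB replicate 1 more than 2-fold above HB replicate 2, a step that 5.03% of all genes tested showed. The reverse step was seen in 0 partners, and its share over all genes was not counted.

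Of the regulators, Srebf1 was not called and Mlxipl fell, while the citrate carrier Slc25a1 rose. Srebf1 had 559 and 310 CPM in HB against 190 and 411 CPM in HF, with overlapping groups and no call (log2 change 0.53, SE 0.40, adjusted p = 0.361). Mlxipl had 516 and 693 CPM in HB against 1457 and 1706 CPM in HF (log2 change -1.39, SE 0.31, adjusted p = 0.0124), and it was not called without HB replicate 1 (-1.19, adjusted p = 0.0582). Slc25a1, which exports citrate from mitochondria, had 364 and 412 CPM in HB against 149 and 146 CPM in HF (log2 change 1.39, SE 0.29, adjusted p = 0.0101), and it was not called without HF replicate 1 (adjusted p = 0.0811) or HF replicate 2 (adjusted p = 0.0733). Unlike the 9 genes, Slc25a1 and Mlxipl were both lower in HB replicate 1 than in HB replicate 2. Protein and processed SREBP-1c were not measured.

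The next comparison took the mRNA bound to ribosomes. In ribosome-bound mRNA every one of the 9 genes had more signal in the HB sample than in either HF library, and none passed the test. That the HB value exceeded both HF values held for 9 of 9 genes and for 41.3% of all 9647 genes tested. The median log2 change was 3.30 over the 9 genes and 0.17 over all genes tested. With the HB pair counted as 1 sample, 1 residual degree of freedom remained. The edgeR test called 0 genes at an adjusted p of 0.05 (0.0% of the genes tested), with 338 genes at an unadjusted p under 0.05 (3.5%), and the smallest adjusted p among the 9 was 1.00. Fasn, Elovl6, Thrsp and Acss2 were among those at an unadjusted p under 0.05. DESeq2 called 804 genes, the same 4 among them, and keeping the HB pair as 2 libraries called 1728 genes and 4 of the 9. The 9 genes took 1.91% of the reads in each HB ribosome-bound library and 0.467% and 0.225% in the HF ones.

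Fasn had 9188 and 12450 ribosome-bound reads in HB, summed to 1487 CPM, against 943 and 909 reads or 163 and 138 CPM in HF. The HF libraries agreed closely and the HB sample was 9.88-fold their mean (log2 change 3.30, SE 0.33, unadjusted p = 0.00113 in edgeR's quasi-likelihood test across all genes). Elovl6 had 20442 and 26488 reads in HB, or 3226 CPM, against 1557 and 1071 reads or 268 and 163 CPM in HF. Elovl6, whose total mRNA was not called, thus had a 14.9-fold higher ribosome-bound level in HB (log2 change 3.90, SE 0.45). Thrsp had 37049 and 49394 reads in HB, or 5942 CPM, against 4702 and 7241 reads or 811 and 1103 CPM in HF (log2 change 2.63, SE 0.34). Acacb had 4866 and 6324 reads in HB, or 769 CPM, against 767 and 134 reads or 132 and 20.4 CPM in HF. Its HF libraries differed so far that the log2 change of 3.33 carried an SE of 1.19. Scd1 had 49145 and 66115 reads in HB, or 7923 CPM, against 18118 and 4357 reads or 3124 and 664 CPM in HF (log2 change 2.06, SE 0.99). Acaca had the smallest difference, with 1394 and 1852 reads in HB, or 223 CPM, against 881 and 504 reads or 152 and 76.8 CPM in HF (log2 change 0.96, SE 0.59).

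The acetyl-CoA and NADPH suppliers had HF libraries without a read. Acss2 had 547 and 705 reads in HB, or 86.1 CPM, against 0 and 0 reads in HF. A floor of 3 counts over both HF libraries corresponds to 0.243 CPM, and the HB level was 355-fold above this floor. The floor covers counting error only. In this HF pair 2798 genes had 0 reads in 1 library and over 20 in the other. The 355-fold value is therefore no lower bound on the difference between the diets. Acly had 1111 and 1431 reads in HB, or 175 CPM, against 0 and 250 reads in HF, or 38.1 CPM in replicate 2. Me1 had 492 and 648 reads in HB, or 78.4 CPM, against 0 and 22 reads in HF, or 3.35 CPM in replicate 2. A count of 0 in HF replicate 1 allows up to 0.517 CPM. Such gaps were not confined to the pathway: of 3487 genes with 30 to 150 CPM in HF total mRNA, a range that holds these 3 genes, 5.31% had 0 reads in HF ribosome-bound replicate 1, 3.18% in HF replicate 2, and 0.946% in both.

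**Figure D3:**
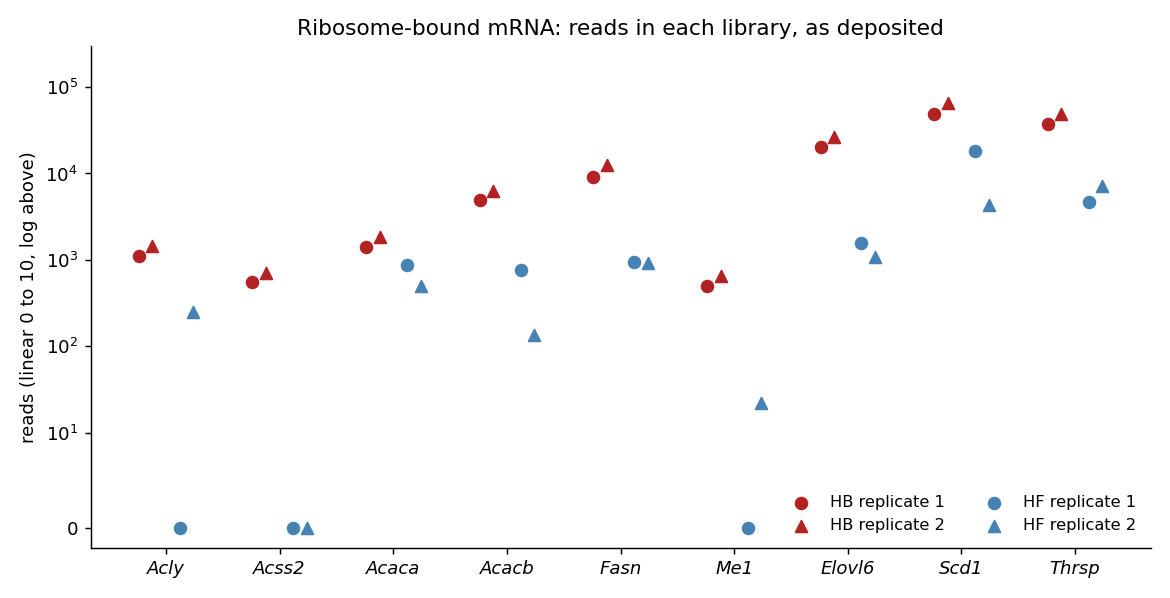
Ribosome-bound reads of the 9 genes in each library as deposited, without scaling to library size (axis linear from 0 to 10 and logarithmic above), HB in red and HF in blue. The HB libraries nearly coincide and lie above HF for every gene, and HF shows 0 reads for Acss2 in both libraries and for Acly and Me1 in replicate 1.

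Per length, Thrsp led the ribosome-bound libraries with 5153 RPKM in HB (mean of 2 nearly identical libraries) and 875 ± 200 RPKM in HF (SD, n = 2). Scd1 followed with 1564 RPKM in HB and 392 ± 357 RPKM in HF (SD, n = 2), and Elovl6 with 519 RPKM in HB and 36.4 ± 12.1 RPKM in HF (SD, n = 2). Elovl6, the seventh of the 9 in total mRNA of both diets, was therefore the third among ribosome-bound messages in both diets. Me1 and Acss2 were the lowest in HF, with 0.523 ± 0.739 RPKM (SD, n = 2) for Me1 and listed at 0 for Acss2.

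Ribosome-bound over total mRNA relates the 2 measures for each gene. Of the 9 genes, Elovl6 had the highest fitted ratio in both diets, and the acetyl-CoA and NADPH suppliers Acly, Acss2 and Me1 had the lowest. In HB it was called for 0 of the 9 genes and for 28.4% of all 12634 genes tested, and in HF for 1 gene, Acss2, which was lower among ribosome-bound messages, and for 28.6% of all genes (24.7% lower). The median log2 ratio was -0.13 over the 9 genes in HB against -0.71 over all genes, and -0.45 in HF against -0.56 over all genes. These ratios come from 1 edgeR fit over 7 libraries with 3 residual degrees of freedom.

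Elovl6 had a log2 ratio of 3.61 (SE 1.05, adjusted p = 0.0613) in HB and 1.57 (SE 0.89, adjusted p = 0.292) in HF. Thrsp followed in HF at 0.78 (SE 0.57), against 1.23 (SE 0.67) in HB, and Acacb stood at 1.55 (SE 1.37) in HB and -0.01 (SE 1.17) in HF. At the other end, Me1 stood at -2.33 (SE 1.45) in HB and -4.79 (SE 1.32, adjusted p = 0.0526) in HF. Fasn and Scd1 lay near 0 within their errors, Fasn at -0.13 (SE 1.02) in HB and -0.45 (SE 0.83) in HF, and Scd1 at -0.63 (SE 1.16) in HB and -0.77 (SE 0.92) in HF. Acaca stood at 0.45 (SE 0.61) in HB and 0.77 (SE 0.51) in HF. Acly had -1.47 (SE 2.44) in HB and -2.23 (SE 1.97) in HF, with errors of about the size of the ratio. For Acss2 the HB ratio was -1.63 (SE 0.95). In HF it was called lower (adjusted p = 0.0118), with 0 ribosome-bound reads beside 35.6 and 45.3 CPM of total mRNA. A floor on these reads covers counting error only, and not the spread between the HF ribosome-bound libraries. The floor of 3 counts over both HF libraries puts ribosome-bound Acss2 at least 187-fold lower than its total mRNA in HF, and the call was lost when either HF mRNA library was left out, in fits that called 0 genes in all.

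**Figure D4:**
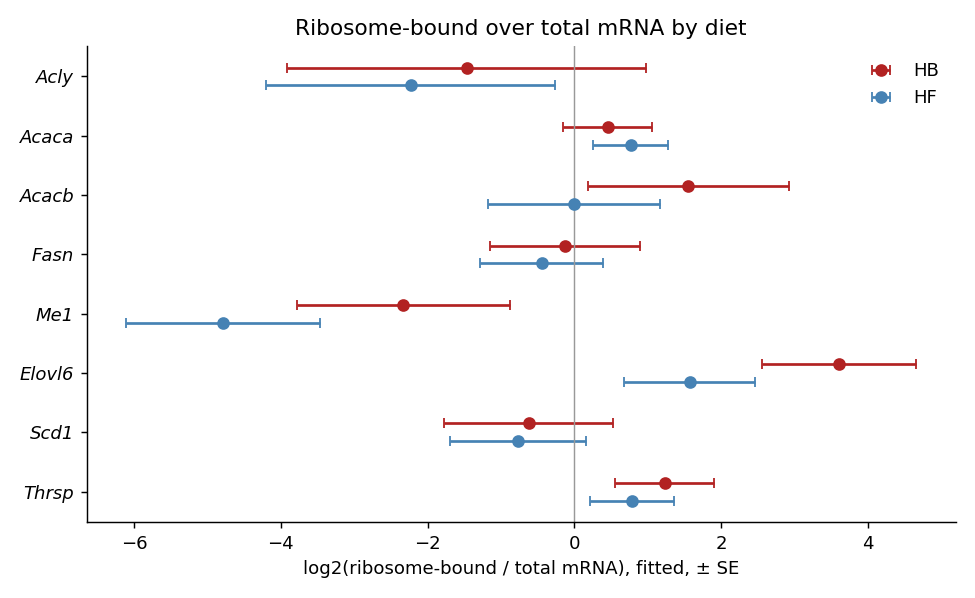
Fitted log2 ratio of ribosome-bound over total mRNA for 8 of the 9 genes, HB in red above HF in blue, with bars of 1 SE from the fit. Acss2 is left out because it had 0 ribosome-bound reads in HF. Elovl6 lies highest and Me1 lowest in both diets, and the bars of the 2 diets overlap for 7 of the 8 genes, Elovl6 being the exception.

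The change of this ratio with diet, HB minus HF on the log2 scale, was called for 0 of the 9 genes and for 10.5% of all genes tested. The fitted change was positive for 8 of the 9, with a median of 0.76 against 0.00 over all genes. Me1 (2.46, SE 1.74) and Elovl6 (2.03, SE 1.36) lay more than 1 SE above 0. Acacb (1.55, SE 1.82), Acly (0.76, SE 2.93), Thrsp (0.44, SE 0.89), Fasn (0.32, SE 1.31), Scd1 (0.14, SE 1.45) and Acaca (-0.32, SE 0.80) lay within 1 SE of 0. Acss2 had the smallest adjusted p, 0.0678, and was called by DESeq2 (adjusted p = 0.000128), and its fitted change depends on the HF reads at 0. The direction hung on the HB mRNA pair: without HB mRNA replicate 2 the change was positive in 4 of the 9 genes, with a median of -0.08, and without HB mRNA replicate 1 in 9 of the 9, with a median of 2.81. Of the 33 partners, 1 was called higher and 2 lower in this change.

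m6A was examined through the authors' peak lists, which held 22086 and 25718 peaks in HB and 22060 and 24141 in HF, each with a fold enrichment of at least 6.00 over its background. Peaks lay within 5 of the 9 genes, Acss2, Acaca, Acacb, Me1 and Elovl6, and in 82.3% of 12477 genes that were tested for mRNA and placed on the genome. Acly, Fasn, Scd1 and Thrsp had 0 peaks in any library, as did 17.7% of those genes. Longer genes held more peaks, with a median of 1 in genes of about the span of Thrsp and 21 at about that of Acaca. Of genes within a factor of 1.5 of its span, the share without a peak was 4.44% for Acly, 15.2% for Fasn, 21.5% for Scd1 and 41.4% for Thrsp. Peaks are the authors' calls and their absence is no measure of unmethylated RNA. The 9 genes held 20 and 25 peaks in HB and 13 and 18 in HF. Exon and intron positions were not used here, so a peak is placed only by its distance from the ends of the gene.

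Few of these peaks recurred. The 76 peaks formed 66 regions when peaks that overlap by 1 base or more were joined, and 59 of the regions (89.4%) came from 1 library, against 83.9% of the regions of all peaks. One region, in Acacb, was called in all 4 libraries (chromosome 5, 114168806 to 114169204, mm10), with fold enrichments of 16.1 and 12.9 in HB and 7.88 and 27.7 in HF. Its summits lay 22684 to 22752 bases from the gene start. Over all genes, 13.4% held a region shared by all 4 libraries. A region in Acaca (chromosome 11, 84146168 to 84146569) was called in 3 libraries, with fold enrichments of 8.10 and 14.9 in HB and 12.4 in HF replicate 1.

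Regions called in any 2 libraries numbered 5 in the 9 genes (7.58% of their regions), against 9.97% of the regions of all peaks. Acacb held most of them, each called in both libraries of 1 diet. Both HB libraries, and neither HF library, had peaks at 114173229 to 114173446 (fold enrichments of 6.75 and 8.10) and at 114213365 to 114213912 (8.39 and 8.37). Both HF libraries, and neither HB library, had peaks at 114232655 to 114233286 (6.54 and 8.25) and at 114249667 to 114250014 (11.4 and 11.1), the last of them with summits 881 and 926 bases from the gene end. Elovl6 had 1 region in both HB libraries only (chromosome 3, 129628349 to 129628617, fold enrichments of 8.39 and 6.29). Several of these values lay close to the floor of 6.00, and with 2 libraries per diet no test of a difference was made. Acaca had 8 and 8 peaks in HB against 1 and 9 in HF, and Me1 had 2 and 6 in HB against 1 and 1 in HF. The single low library in Acaca and the single high one in Me1 show the spread between libraries of 1 diet. Acss2 had 1 and 2 peaks in HB against 2 and 0 in HF.

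**Figure D5:**
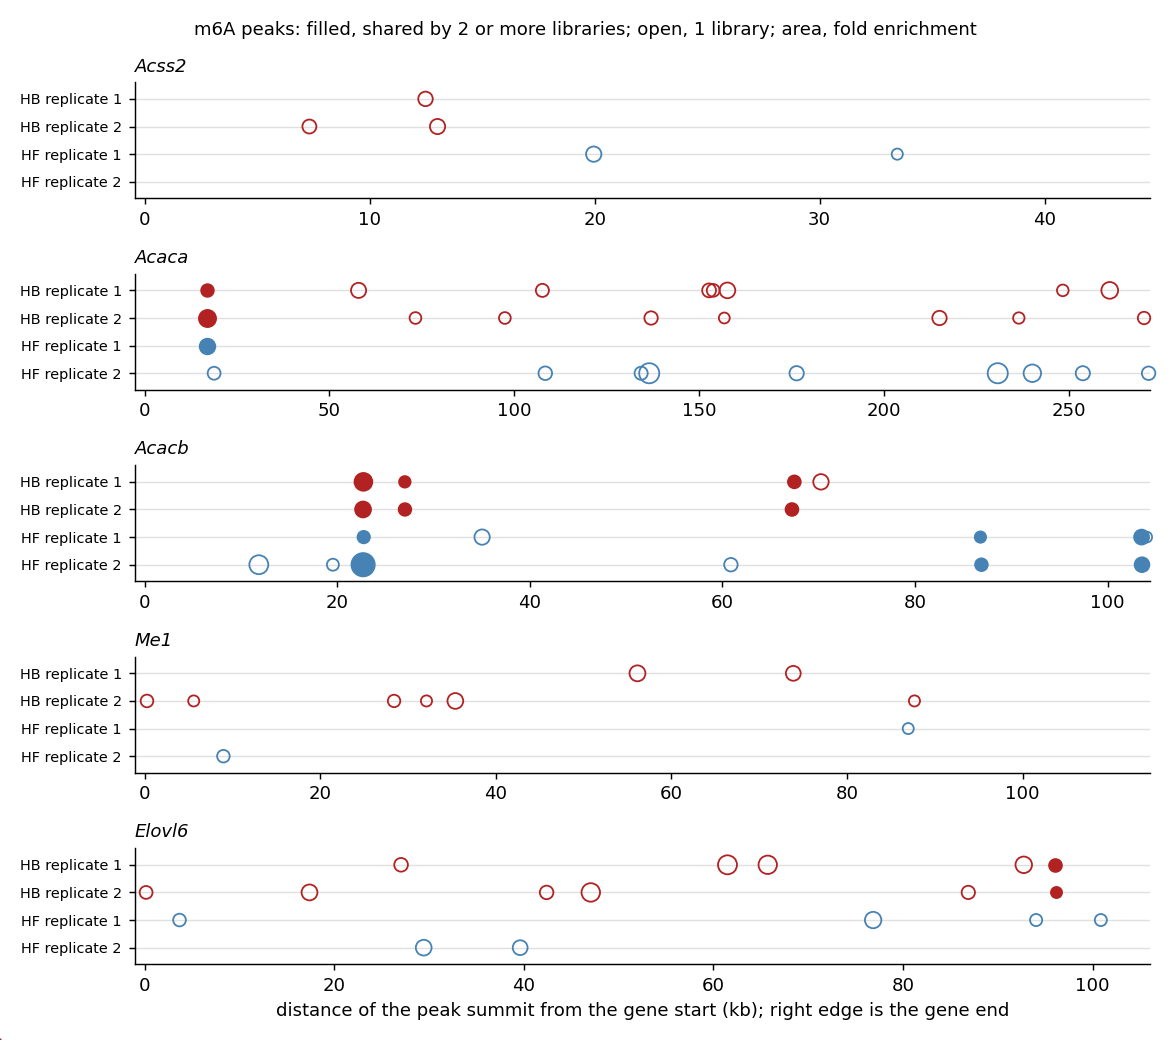
m6A peak summits along the 5 genes with peaks, one row per library with HB in red above HF in blue, as distance from the gene start in kb. Filled circles are shared by 2 or more libraries, open circles come from 1 library, and the circle area is the authors' fold enrichment. Most circles are open, and the only column of 4 filled circles is in Acacb.

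The genes whose pattern was most like the mean of the 9 were named by the root mean square distance between mean-centred log2(CPM + 1) values over the 7 libraries (HB ribosome-bound pair summed), among 9633 genes. Papss1 was nearest (0.40), then Insig1 (0.44), Gm16551 (0.49), Raet1d (0.56) and 1700018L02Rik (0.57). Of these only Insig1 was abundant, with 663 and 227 CPM of total mRNA in HB against 115 and 117 CPM in HF, and 281 CPM of ribosome-bound mRNA in HB against 55.6 and 36.3 CPM in HF. Papss1 stayed under 15 CPM in every library. Among the 9 genes themselves Fasn was closest to the mean (0.47) and Scd1 next (0.78). Acss2 (1.83), Acly (1.75), Me1 (1.69) and Elovl6 (1.66) lay far from the mean, ranked 5818, 5223, 4668 and 4397 of the 9633 genes. The mean is thus not a pattern that all 9 share. The 4 distant genes were those with HF ribosome-bound libraries at 0 and Elovl6, which was high among ribosome-bound messages.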

How the data were processed

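Total mRNA, ribosome-bound mRNA and m6A libraries of mouse liver (12 of 16 samples, 2 per diet and kind; m6A input not used here) were taken as deposited. Deposited read counts per gene carried no normalization, per the file headers, and the deposited RPKM were scaled by the authors to longest transcript and library, per the file headers. Per the labels' protocols, Trimmomatic 0.36 trimmed the m6A reads and Tophat 2.0.13 placed them on the genome. The deposited peak tables give a fold enrichment ratio, a pileup signal and −log10 p- and q-values for each peak, per the file headers. The submitters' processing notes name MACS2 2.1.0.20151222, HISAT2 2.0.4, HOMER 4.8, cutadapt 1.9.3, edgeR, HTSeq 0.6.0 and the build mm10, and which step used which is not given in the sources used here.

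Counts were analysed with edgeR 4.0.16 (R 4.3.3): TMM, filterByExpr, quasi-likelihood F test, Benjamini-Hochberg over all genes tested, threshold 0.05. mRNA was fitted on its 4 libraries (12817 genes), ribosome-bound mRNA on 3 (9647 genes, HB pair summed) and ratios on 7 (12634 genes). A group with 1 sample is assumed to vary like the others. DESeq2 1.42.0 and limma 3.58.1 were alternatives. The edgeR steps were also run on simulated libraries, drawn independently with 1 common dispersion. That setting lacks the near-copy HB ribosome-bound pair and the unequal spread of the pairs, so it cannot test how the fits handle them. Precision is limited by 2 libraries per group. The SEs come from the edgeR fits and include their estimate of the spread between libraries, whereas the floors cover counting error only. Replicate numbers are not stated to pair samples.

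The 9 genes, the 33 partners and the markers were chosen with earlier results of these data known. All 9 genes are named, with the 6 called partners of largest mRNA change, Srebf1, Mlxipl, Slc25a1 and the 5 genes nearest the mean pattern. Sequences are from RefSeq (GRCm38.p6).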

Additional observations from a re-analysis of the deposited data

How the results depend on the processing

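The HB over HF direction of total and ribosome-bound mRNA was positive for all 9 genes under every alternative run, but calls moved. In total mRNA the 7 calls became 5 with total counts in place of TMM, where Acly and Acaca were lost. The median of all genes then shifts by -0.29, with 783 genes higher and 2320 lower. DESeq2 called 6 of the 9 (Acly lost) and 3031 of all genes (23.6%). With limma on log2(RPKM + 0.1) 4 of the 9 were called (845 genes higher and 2126 lower). Without the low-count filter 9 of the 9 were called, and 3603 of 16762 genes (21.5%). In a fit over all 7 libraries 0 genes and 0 of the 9 were called. Leaving out 1 mRNA library gave 776 to 3024 genes and 2 to 8 of the 9, and the change of the partner Pnpla3 ran from -0.35 to 4.98. With the replicate number as a block 2936 genes and 9 of the 9 were called, and with crossed pairs, chosen after seeing the data because the numbers deviated against each other (r = -0.13), 3407 and 7.

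For ribosome-bound mRNA, DESeq2 called 804 genes and 4 of the 9, the HB pair kept as 2 libraries 1728 and 4, the 7-library fit 1459 and 1 (Acss2), and limma on RPKM 969 and 1 (Acss2). The HB pair kept as 2 libraries with the replicate block gave 0 and 0, as did leaving out either HB library. Without an HF library no residual degree of freedom remained.

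For the ratios, the replicate block was run with the HB ribosome-bound pair kept as 2 libraries, so 2 choices changed together. Calls follow as genes, then members. For the change with diet, DESeq2 gave 2187 and 1, and the HB pair kept separate 2053 and 1. The pair separate with the replicate block gave 0 and 0, and length trend removed 2071 and 1. The member called was Acss2 each time. In the main fit 28.6% of genes were called within HF and 28.4% within HB. Within HF, DESeq2 gave 4036 (31.9%) and 2, and the pair separate with the replicate block 19 and 0. The pair kept separate called 2 members within HF. Within HB, total counts gave 3728 (29.5%) and 1, DESeq2 4622 (36.6%) and 1, and the pair kept separate 5428 and 1. The pair separate with the replicate block gave 1332 and 0 within HB, and length trend removed called 2 members. Leaving out 1 library gave 0 to 4859 genes and 0 to 3 members for the change, 0 to 7856 and 0 to 5 within HF, and 0 to 8191 and 0 to 3 within HB. The high ends come without an HF ribosome-bound library, where the spread comes from mRNA libraries alone.

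Directions of some ratios turned. Total counts turned Acacb in HF (0.14) and Fasn in HB (0.23), DESeq2 Acacb in HF (0.094), and the HB pair kept separate with the replicate block Fasn in HB (0.36). Removing the length trend turned Acaca for the change (0.30), Acacb (0.53) and Fasn (0.076) in HF, and Acly (0.21), Acss2 (0.14), Fasn (0.96) and Scd1 (0.99) in HB, where the median of all genes was then 0.93. Leaving out 1 library, the change ran from -0.23 to 11.59 in Acly (fitted, where the HF reads left are at 0), -0.73 to 0.30 in Acaca, -0.45 to 2.18 in Fasn, -0.60 to 1.65 in Scd1 and -0.11 to 1.40 in Thrsp, the HF ratio of Acacb from -1.90 to 1.26, and the HB ratios from -2.29 to 0.79 in Acly, -0.89 to 1.73 in Fasn and -1.16 to 0.29 in Scd1. The cause was not tested. At a fold enrichment of at least 10, 33 peaks remained in 5 genes, 0 regions were shared by all 4 libraries and 26 came from 1 library.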
